A study of Mus musculus with 4 samples.

Results

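The genes of the proteasome, the protease complex that degrades ubiquitin-tagged proteins, were described in CT26 and MC38 cells with and without knockdown of Aurora-A. They were chosen by name: 49 of the 51905 genes in the deposited tables had a symbol of the Psma to Psmg series. Of these, 2 (Psmb8 and Psmb9) were left out by the rule, so 47 genes were kept. The name rule itself uses no measured value. The 47 genes comprised 17 genes of the 20S core (8 of the alpha ring, 7 constitutive and 2 inducible or thymic of the beta ring), 17 of the 19S cap, 5 activator genes, the inhibitor gene Psmf1 and 7 assembly factor genes.

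The 20S core is a barrel of stacked rings, in which beta subunits cut peptide bonds and alpha subunits form the gate. The 19S cap binds ubiquitin chains, removes them and threads the substrate into the barrel with a ring of ATPases, while the activators encoded by Psme1 to Psme4 open the gate without ubiquitin. Interferon gamma induces replacement beta subunits and the Psme1 and Psme2 activator, which alter the peptides available to MHC class I, and the transcription factor NFE2L1 raises most subunit genes together when proteasome activity is short.

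Both lines are mouse colon cancer lines of labelled genotype WT, CT26 labelled as fibroblast and MC38 as epithelial cells. Each was infected with lentivirus for a short hairpin RNA directed in the control (shGFP) at GFP and in the knockdown (shmaurka-1) at mouse Aurora-A, the mitotic kinase encoded by Aurka. The study's methods give puromycin selection of infected cells for all of its hairpin lines, so each group is a selected pool made with a single hairpin. The methods also give different media, RPMI for CT26 and DMEM with added amino acids and HEPES for MC38, so line and medium cannot be told apart. RNA was taken from cells seeded 48 h earlier. There was a single library in each of the 4 groups (CT26 shGFP, CT26 shmaurka-1, MC38 shGFP and MC38 shmaurka-1), so that line and virus are the only replication.

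The libraries held between 22207768 and 23752268 fragments, recovered from the deposited counts. Aurka was lower in both knockdown libraries: CT26 held 5724 fragments with shGFP against 1093 with shmaurka-1, and MC38 held 2300 against 413, log2 fold changes of -2.27 and -2.44. Of 6 epithelial marker genes, MC38 held 0 at an FPKM of 1 or more (summed FPKM 1.21 and 0.964), against its epithelial label, and CT26 held 1 (Krt18, 33.7 and 37.5). Of 6 fibroblast or mesenchymal markers, 5 reached that level in each library, with summed FPKM of 531, 555, 329 and 279 in the order given above. The 4 leukocyte markers summed to at most 0.243, the 3 endothelial markers to at most 1.66 and the 2 erythroid markers to at most 2.98 FPKM in any library.

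The proteasome genes were among the well expressed genes of both lines. After a filter of at least 10 counts on average in each line, 45 of the 47 remained, and 41 of them averaged at least 500 counts in each line. In FPKM (fragments per transcript length and depth, the unit used here for levels between genes) the 45 ran from 10.4 (Psmg1) to 282 (Psmb4) in CT26 shGFP and from 21.2 (Psmd9) to 261 (Psma7) in MC38 shGFP, with medians of 75.8 and 77.8. Summed over all 47, they amounted to 4755 FPKM in CT26 shGFP, 4754 in CT26 shmaurka-1, 4077 in MC38 shGFP and 4164 in MC38 shmaurka-1, which is 0.845%, 0.824%, 0.93% and 0.919% of all FPKM of the library. The ratio of knockdown to control was 0.9999 in CT26 and 1.02 in MC38. The other 2 genes were at or near 0: Psmb11, the beta subunit of thymic epithelium, had 0 fragments in every library, and Psma8, the alpha subunit of spermatocytes, had 1 fragment in CT26 shmaurka-1 and 0 in the others. A count of 0 allows up to 3 fragments in a library.

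**Figure D1:**
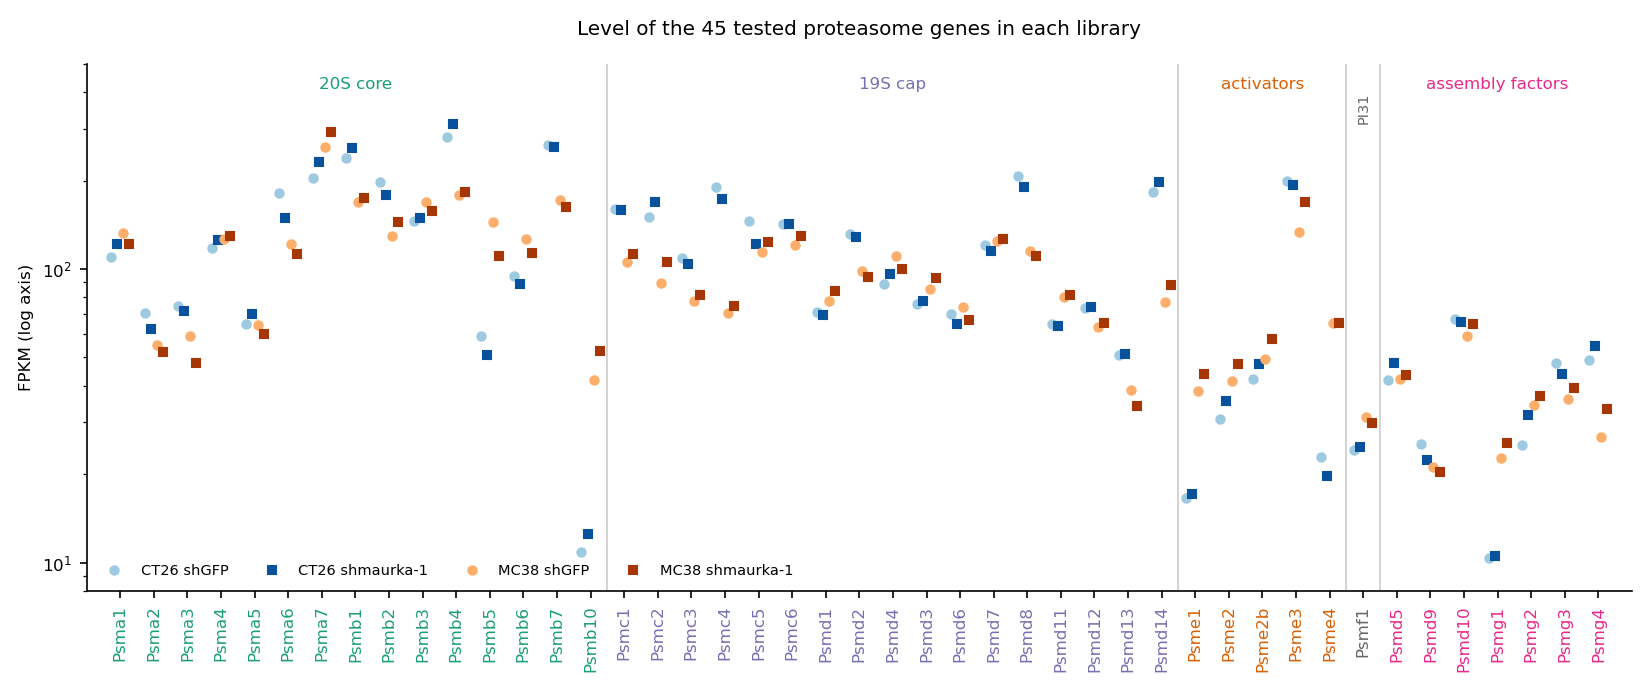
FPKM of the 45 proteasome genes that passed the filter, on a log axis, with 1 point for each library (light circles for shGFP, dark squares for shmaurka-1, blue for CT26, orange for MC38) and gene names coloured by class. The blue and orange points lie apart for Psmb5, Psmb10, Psme1, Psme4 and Psmg1, higher in MC38, and for Psmc4 and Psmd14, lower in MC38, whereas light and dark points of the same line lie close together.

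Of the 47 genes, 21 share a locus with other genes in the files, and 26 have one of their own. A locus of several genes can leave the division of its reads uncertain, so some counts are also given over the 24 tested genes with a locus of their own. The least certain pair is Psme2 and Psme2b: their best-aligned transcripts matched at 790 of 795 bases (99.4%), and the Psme2b locus (chr11:48904656-49135387) holds 12 genes. Only 4 rows of the files are named as pseudogenes of these genes, and 0 of them reached 10 fragments in any library.

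Knockdown of Aurora-A was accompanied by small differences in proteasome transcripts. In neither line was any of the 45 genes past 1.5-fold higher or 0.6-fold lower, folds at which 3.2% and 2.57% of the 11928 genes tested lay in CT26 and 2.47% and 1.03% in MC38. At a smaller fold of 1.2, 2 of the 45 were higher in CT26 (Psmb10 and Psmg2, against 13.4% of all genes) and 3 were lower (Psma6, Psmb5 and Psmc5, against 15.6%). In MC38, 3 were higher (Psmb10, Psme3 and Psmg4, against 12.5%) and 2 were lower (Psma3 and Psmb5, against 11.1%). Among the 6329 genes averaging 500 counts or more in both lines, as 41 of the 45 do, the shares at that fold were 9.81% higher and 6.84% lower in CT26, and 7.17% and 5.28% in MC38. The 4 genes under that mean include Psmb10, Psmg2 and Psmg4. Of the genes named as higher, only Psme3 in MC38 thus belongs beside those shares, whereas the genes named as lower all do. With 1 library per group there is no test within a line, and 37 of the 45 genes stayed within 1.2-fold in both.

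As a whole, the genes were centred on no difference. The 45 had a median log2 fold change of -0.02 for CT26 and 0.03 for MC38, beside -0.0052 and -0.0005 for all genes tested, and their SD was 0.14 and 0.16, beside 0.34 and 0.29 for all genes and 0.21 and 0.18 for those averaging 500 counts or more. In CT26 19 genes were above 0 and 26 below it, and in MC38 27 were above and 18 below. Of the 24 genes with a locus of their own, 11 were above and 13 below in CT26, and 15 and 9 in MC38. The direction was shared by both lines for 14 genes above and 13 below, and differed for 18. Exact intervals on the fragments (95%, counting error only) left out 0 for 26 of the 45 (57.8%) in CT26 and 31 (68.9%) in MC38, beside 43.2% and 45% of all genes tested and 57.5% and 58.2% of those averaging 500 counts or more. Spread between cultures could not be measured.

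**Figure D2:**
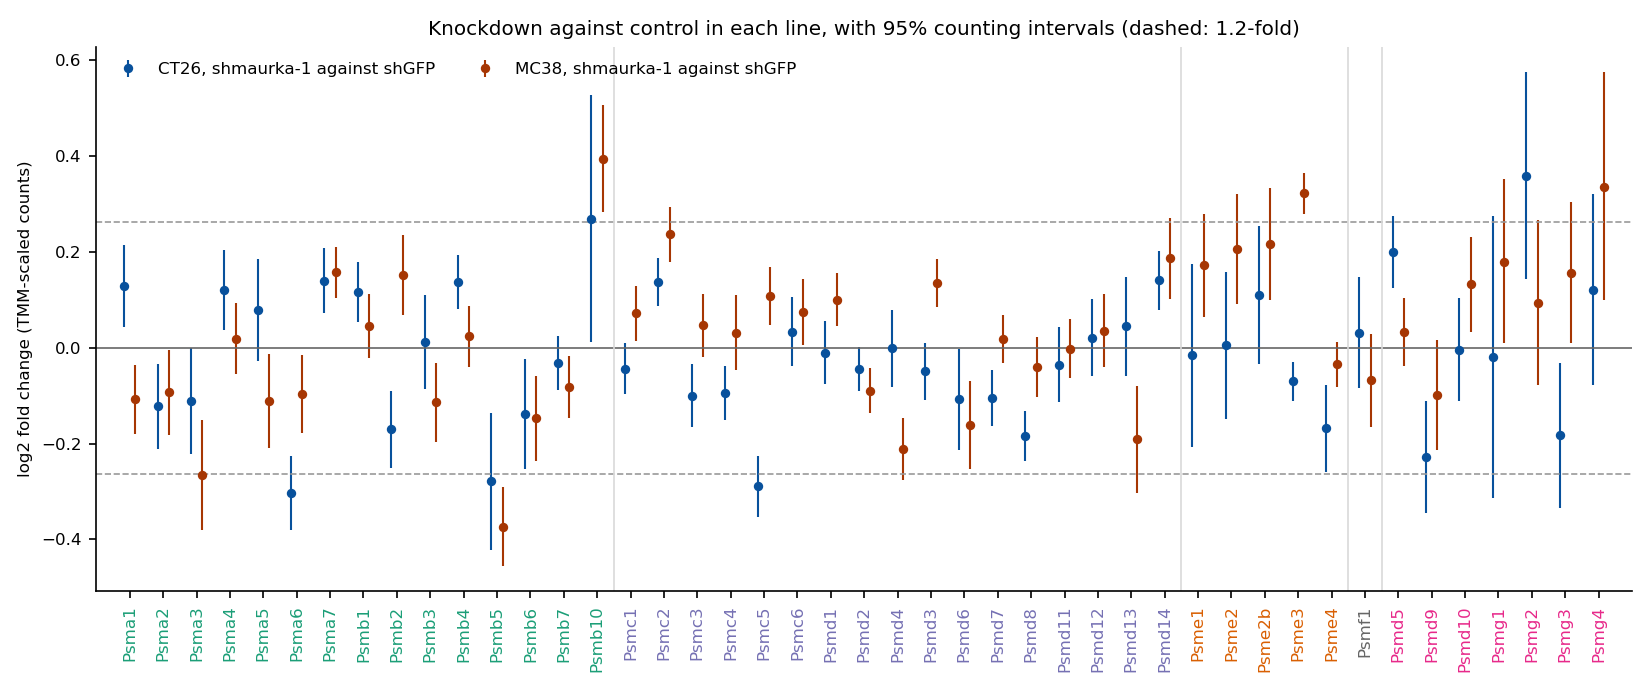
Log2 fold change of each proteasome gene in shmaurka-1 against shGFP, from TMM-scaled counts, in CT26 (blue) and MC38 (orange). Bars are 95% intervals for counting error, dashed lines mark 1.2-fold, and Psmb5 and Psmb10 are the genes past the same line in both CT26 and MC38.

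Within the 20S core, Psmb5 and Psmb10 stood out in both lines, in opposite directions. Psmb5 (chr14:54614120-54617995, a locus that also holds Mir686) encodes the chymotrypsin-like catalytic subunit, the main target of bortezomib. In CT26 the control library held 947 of its fragments and the knockdown library 718, and in MC38 they held 2762 and 2089. After scaling, these gave log2 fold changes of -0.28 (95% counting interval -0.42 to -0.14) and -0.37 (-0.46 to -0.29). In deposited FPKM the ratio of knockdown to control was 0.859 in CT26, short of 1.2-fold, and 0.768 in MC38. Each knockdown library was lower than the control of its own line, although both MC38 libraries were above both CT26 libraries. Psmb10 (locus chr8:105934333-105966097, shared with 4 other genes), the interferon-inducible trypsin-like subunit that takes the place of Psmb7, had 239 and 265 fragments in CT26 and 1155 and 1488 in MC38. On the log2 scale the difference was 0.27 (0.01 to 0.53) in CT26 and 0.39 (0.28 to 0.51) in MC38. The interval in CT26 almost reaches 0, and deposited FPKM or total-count scaling took the CT26 value under 1.2-fold.

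The other catalytic subunits differed less. Psmb6, the caspase-like subunit, had 1389 and 1161 fragments in CT26 and 2194 and 1941 in MC38, log2 fold changes of -0.14 and -0.15. Psmb7, the constitutive trypsin-like subunit, had 5246 and 4719 fragments in CT26 and 4111 and 3805 in MC38, log2 fold changes of -0.03 and -0.08. The 3 constitutive catalytic genes were thus below 0 in both lines, although the CT26 interval of Psmb7 (-0.089 to 0.025) included 0. Of the 4 non-catalytic beta genes, Psmb1 and Psmb4 were above 0 in both, by 0.12 and 0.14 in CT26 and by 0.05 and 0.02 in MC38, whereas Psmb2 (-0.17 and 0.15) and Psmb3 (0.01 and -0.11) differed in direction.

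In the alpha ring, which holds the gate, 2 genes were past 1.2-fold, each in a single line, and both were below 0 in both lines. Psma6 had 3180 and 2370 fragments in CT26 and 2586 and 2369 in MC38, log2 fold changes of -0.30 (-0.38 to -0.23) and -0.10 (-0.18 to -0.02). Psma3 (locus chr12:70974621-71015832, shared with 3110056K07Rik) had 1450 and 1235 fragments in CT26 and 1358 and 1107 in MC38, log2 fold changes of -0.11 and -0.27 (-0.38 to -0.15). The median of the 7 alpha genes tested was 0.08 in CT26 and -0.10 in MC38. For the 15 core genes tested it was 0.01 and -0.09, with 8 above 0 in CT26 and 6 in MC38, but over the 7 core genes with a locus of their own the medians were 0.12 in CT26 and 0.02 in MC38. All 4 genes at least 1.2-fold lower in 1 line or both (Psma3, Psma6, Psmb5 and Psmc5) had a shared locus, and among the 24 genes with a locus of their own 0 were lower in CT26 and 0 in MC38 at that fold.

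The 19S cap genes had a median of -0.04 in CT26, with 12 of 17 below 0, and of 0.04 in MC38, with 11 of 17 above it. Its 6 ATPases, the motor of the complex, were all above 0 in MC38, with a median of 0.07, whereas 4 of the 6 were below 0 in CT26, where the median was -0.07. The intervals of Psmc3 and Psmc4 in MC38, and of Psmc1 and Psmc6 in CT26, included 0. Psmc5 (locus chr11:106256154-106263120, shared with Gm23645) differed most between the lines, with 4605 and 3466 fragments in CT26 and 4390 and 4635 in MC38. On the log2 scale the difference was -0.29 (-0.35 to -0.23) in CT26 and 0.11 (0.05 to 0.17) in MC38, and the CT26 value is the only one of the 17 cap genes past 1.2-fold in either line. In deposited FPKM its CT26 ratio was 0.837, just short of that fold. Psmc2, another ATPase, was above 0 in both, at 0.14 (0.09 to 0.19) and 0.24 (0.18 to 0.29). Among the non-ATPases, Psmd4, a ubiquitin receptor, was at -0.0008 in CT26 and -0.21 (-0.28 to -0.15) in MC38, and Psmd14, the deubiquitinase of the lid, was at 0.14 (0.08 to 0.20) and 0.19 (0.10 to 0.27).

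The activator genes were centred near 0 in CT26, at a median of -0.02, and at 0.21 in MC38, where 4 of 5 were above 0. Psme3 (chr11:101316213-101323537), which encodes the nuclear activator, had 10161 and 8904 fragments in CT26 and 8121 and 9949 in MC38. On the log2 scale the difference was -0.07 (-0.11 to -0.03) in CT26 and 0.32 (0.28 to 0.37) in MC38, so the MC38 control was the lowest library after scaling and its knockdown counterpart lay closer to CT26. Psme1 and Psme2, the subunits of the interferon-inducible activator, were at -0.02 (-0.21 to 0.18) and 0.01 (-0.15 to 0.16) in CT26 and at 0.17 (0.07 to 0.28) and 0.21 (0.09 to 0.32) in MC38. In deposited FPKM the ratio of knockdown to control for Psme2 was 1.15 in CT26, higher than from counts, and 1.14 in MC38. Psme2b was at 0.11 and 0.22, with the uncertainty in its reads described above. Psme4, the large activator linked to histone degradation, was at -0.17 (-0.26 to -0.08) in CT26 and -0.03 (-0.08 to 0.01) in MC38, and Psmf1, encoding the inhibitor PI31, was at 0.03 and -0.07. Summed over the 5 activators, FPKM in knockdown was 1.01 times the control in CT26 and 1.17 times in MC38.

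The 4 interferon-inducible genes kept by the rule were Psmb10, Psme1, Psme2 and Psme2b, so Psmb8 and Psmb9 are not among them. They had a median of 0.06 in CT26 (0.19 from FPKM with a pseudocount of 0.1) and 0.21 in MC38. Their summed FPKM was 100.4 in control and 113 in knockdown for CT26, and 171 and 201 for MC38. All 4 were above 0 in MC38 and 3 of 4 in CT26, beside 5955 and 5865 of all 11928 genes tested. In MC38 each interval left out 0, but in CT26 only that of Psmb10 did (0.01 to 0.53). Psme2 and Psme2b, whose reads are hard to divide, are not separate evidence.

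Of the assembly factors, which build the rings and leave before or as the particle is complete, 3 of 7 were above 0 in CT26 and 6 of 7 in MC38. Psmg2, which pairs with Psmg1 to build the alpha ring, had 328 and 387 fragments in CT26 and 544 and 569 in MC38, log2 fold changes of 0.36 (0.14 to 0.58) and 0.09 (-0.08 to 0.27). Psmg4 (chr13:34162964-34178173), which pairs with Psmg3, had 419 fragments in both CT26 libraries and 266 and 329 in MC38, log2 fold changes of 0.12 (-0.08 to 0.32) and 0.33 (0.10 to 0.58). These are among the least abundant genes of the set in fragments, and their intervals are wide. Psmg3 was at -0.18 (-0.34 to -0.03) in CT26 and 0.16 (0.01 to 0.30) in MC38. Psmd5, Psmd9 and Psmd10, the chaperones of the 19S base, were at 0.20, -0.23 and -0.0039 in CT26 and at 0.03, -0.10 and 0.13 in MC38.

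**Figure D3:**
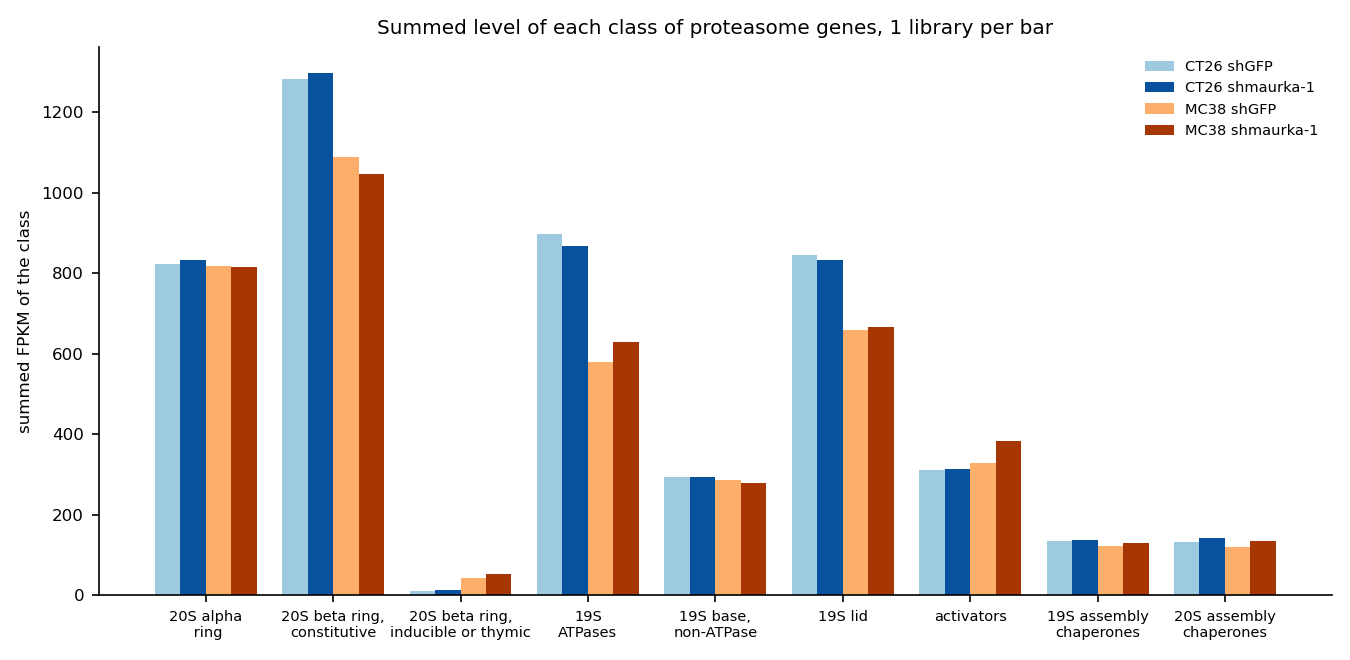
Summed FPKM of each class of proteasome genes, 1 bar for each library. The knockdown bar stands furthest from the control bar, as a ratio, for the inducible or thymic beta genes (1.15 in CT26 and 1.25 in MC38) and for the activators in MC38 (1.17), and the ATPase and lid bars are taller in CT26 than in MC38.

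The effect of knockdown common to both lines was tested over all 4 libraries with edgeR's quasi-likelihood test, with a line term and adjustment by Benjamini-Hochberg over all 11928 genes. It called 0 of the 45 proteasome genes, while it called 1.67% of all genes as higher and 1.12% as lower. At an unadjusted p under 0.05 there were 2 of the 45, Psmb5 and Psmb10, beside 12.3% of all genes tested. Psmb5 had a log2 fold change of -0.33 (SE 0.11, adjusted p = 0.093) and was lower in 2 of 2 lines, and Psmb10 one of 0.34 (SE 0.14, adjusted p = 0.202) and was higher in 2 of 2 lines. DESeq2 and limma (pseudocount 0.1) called 0 of the 45, but they called few genes of any kind, 0.243% and 0.0503% of all tested. At an unadjusted p under 0.05 they had 1 and 4 of the 45, beside 4.17% and 9.7% of all genes. Neither gene reached an adjusted p of 0.05, and the lowest in these genes over the alternative fits lay between 0.0581 and 1. With 1 library per group the edgeR fit leaves 1 residual degree of freedom, and its spread was estimated from all genes together. A gene's own disagreement between the lines carried no weight, so its SE and p do not measure agreement between the lines.

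The lines differed from each other more widely than knockdown from control: the SD of the log2 difference over the 45 genes was 0.68 between MC38 and CT26, beside 0.14 and 0.16 above. Over all genes tested the SD between the lines was 1.39, and over those averaging 500 counts or more it was 0.85. In the same fit, with virus as a block, 32 of the 45 genes (71.1%) were called between MC38 and CT26, 14 higher in MC38 and 18 lower. Of all genes tested, 36.7% were called higher and 36.6% lower, and of those averaging 500 counts or more 29.8% and 45.8%, so the share of proteasome genes called is close to that of the transcriptome. Of the 24 genes with a locus of their own, 7 were called higher and 10 lower. Each line had a shGFP and a shmaurka-1 library and no repeated culture. The SE and adjusted p between the lines therefore do not measure spread between cultures of a line, and line and medium cannot be told apart. The direction of the weaker calls depended on scaling: scaling to total counts moved the median of all genes by 0.31 on the log2 scale, and then 24 of the 45 were called higher and 7 lower, beside 49.1% and 25.4% of all genes. Called under all 9 alternatives in the same direction were 16 of the 32, 9 higher in MC38 (Psma7, Psmb5, Psmb6, Psmb10, Psmd11, Psme1, Psme2, Psme4 and Psmg1) and 7 lower (Psmb4, Psmb7, Psmc2, Psmc4, Psmd8, Psmd14 and Psmg4).

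The genes that were higher in MC38 by the most were spread over 3 classes. Psmb10 was at 10.9 and 12.6 FPKM in CT26 and 41.9 and 52.4 in MC38, a log2 difference in counts of 2.10 (edgeR, SE 0.14, adjusted p = 1.43e-49). Psme4 was at 22.8 and 19.8 FPKM in CT26 and 65.3 and 65.4 in MC38, a log2 difference of 1.62 (SE 0.10). Psme1 was at 16.5 and 17.1 against 38.5 and 44 FPKM, a log2 difference of 1.35 (SE 0.13). All the MC38 libraries lay above all the CT26 libraries in these genes, as they did for Psmb5, with 59.2 and 50.8 FPKM in CT26, 145 and 111 in MC38 and a log2 difference of 1.26 (SE 0.11). Psmg1, the partner of Psmg2 in alpha-ring assembly, was at 10.4 and 10.6 FPKM in CT26 and 22.7 and 25.6 in MC38, a log2 difference of 1.24 (SE 0.16).

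Of the 18 genes called lower in MC38, 8 belonged to the 19S cap and 7 to the 20S core. Psmc4 (chr7:28041707-28050101), an ATPase, was at 190 and 172 FPKM in CT26 and 70.9 and 74.9 in MC38, a log2 difference of -1.22 (SE 0.10). Psmd14 (locus chr2:61711694-61800376) was at 182 and 197 FPKM in CT26 and 77.3 and 88 in MC38, a log2 difference of -1.18 (SE 0.10). Psmg4 was at -0.79, Psmd8, a lid subunit, at -0.77, and Psmb4, Psmc2 and Psmb7 at -0.68, -0.64 and -0.62. In each of these the MC38 libraries were below the CT26 libraries. The 6 ATPases were all below 0, 4 of them called, but under total counts Psmc3, Psmc5 and Psmc6 were above 0. The median of the 45 genes was -0.07 (0.0076 for all genes tested and -0.16 for those averaging 500 counts or more) and became 0.25 under total counts, where that of all genes was 0.32.

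**Figure D4:**
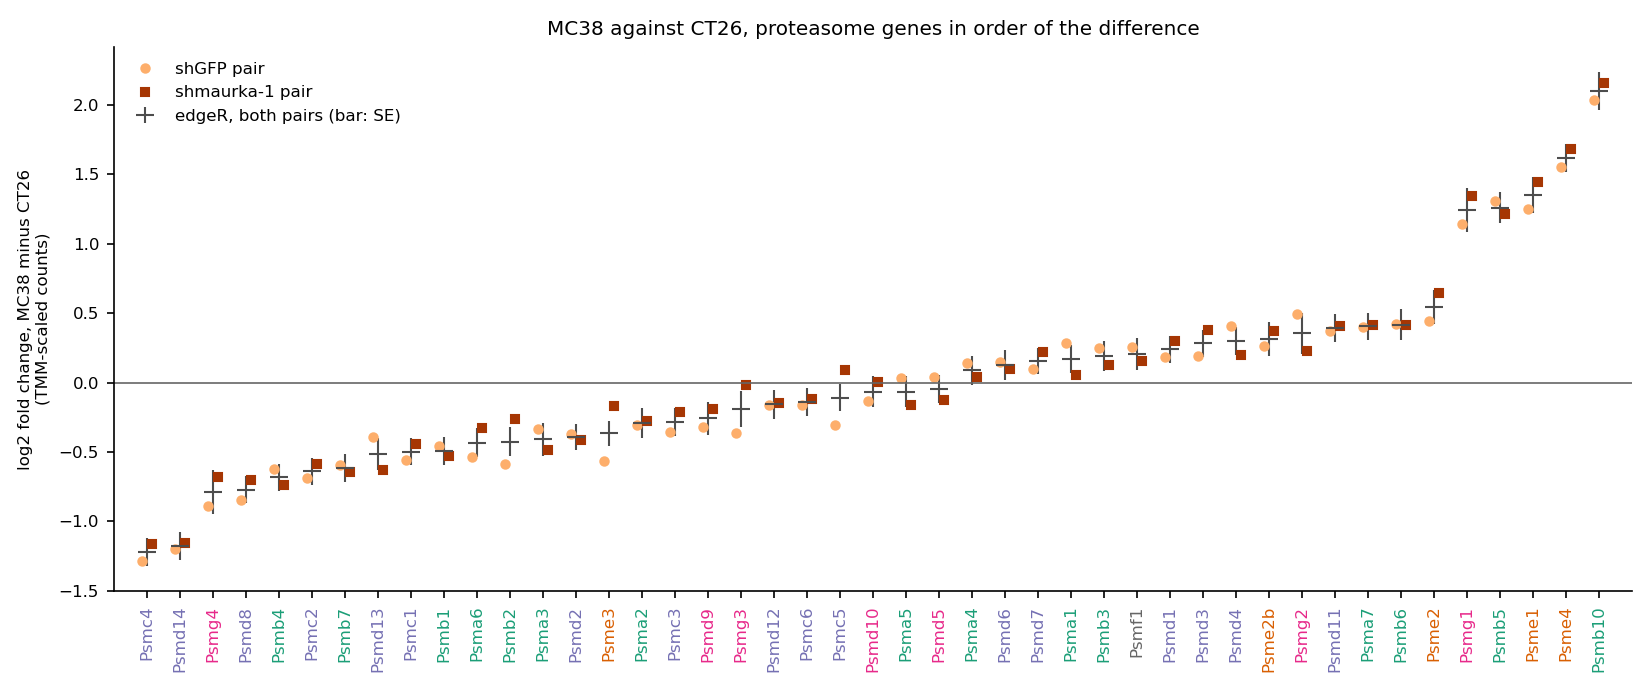
Log2 fold change of MC38 against CT26 for each proteasome gene, in the pair of shGFP libraries (light circles), in the pair of shmaurka-1 libraries (dark squares) and in the fit over both (grey bars, SE), ordered by the fitted value. From Psmc4 at -1.22 to Psmb10 at 2.10, the circles and squares lie furthest apart for Psmc5 (-0.31 against 0.09), Psme3 (-0.56 against -0.17), Psmg3 (-0.36 against -0.02) and Psmb2 (-0.59 against -0.26).

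Levels were uneven among subunits that occupy equal places in the particle, and the 2 rings of the core differed in which line was the more uneven. Over the 7 constitutive beta genes, the highest FPKM was 4.76 times the lowest in CT26 shGFP and 6.11 times in CT26 shmaurka-1, with Psmb4 the highest and Psmb5 the lowest in both. In MC38 the same ratio was 1.41 with shGFP and 1.65 with shmaurka-1. Over the 7 alpha genes tested it was lower in CT26, at 3.13 and 3.69, than in MC38, at 4.75 and 6.08, with Psma7 the highest in every library. Psmb5 relative to Psmb7 was 0.223 and 0.195 in CT26 and 0.845 and 0.685 in MC38, the knockdown library being the lower in each line. The inducible Psmb10 relative to Psmb7, for which it substitutes, was 0.041 and 0.0482 in CT26 and 0.245 and 0.323 in MC38, the knockdown library being the higher in each line. The mean FPKM of a 19S cap gene was 0.848 and 0.822 of that of the 15 core genes tested, without Psma8 and Psmb11, in CT26, and 0.69 and 0.725 in MC38. These are ratios of transcript levels, with no replicate and no test, and say nothing of the protein.

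**Figure D5:**
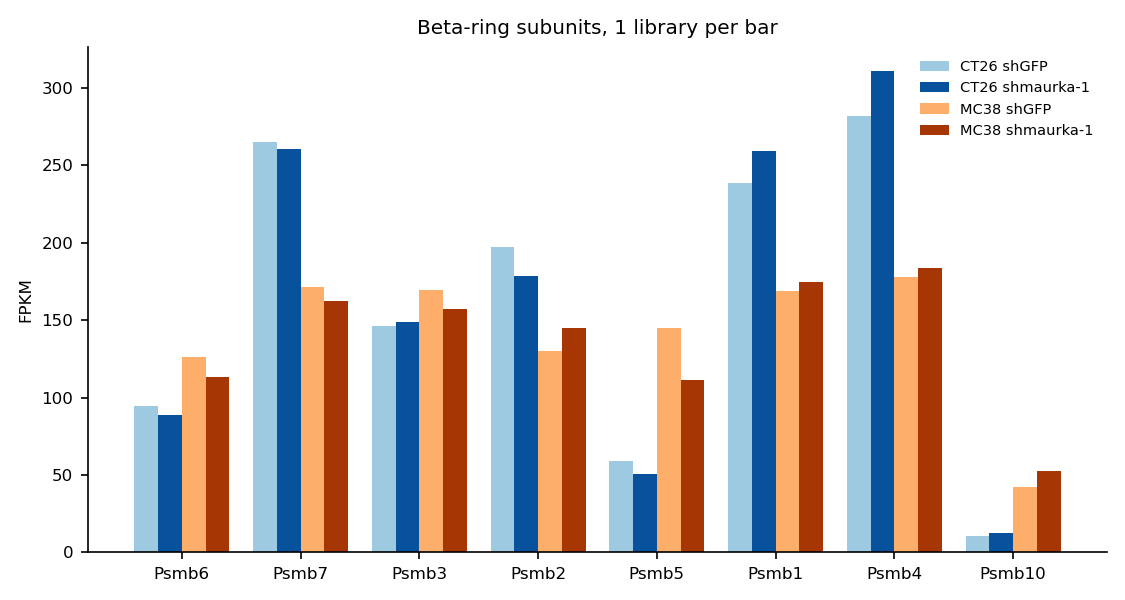
FPKM of the 7 constitutive beta-ring genes and of the inducible Psmb10, 1 bar for each library. In CT26 (blue) the constitutive genes run from Psmb5 (59.2 and 50.8) to Psmb4 (282 and 311), and in MC38 (orange) they lie between 111 and 184, with Psmb10 below them in every library.

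The promoters of 4 genes among those that differ most between the lines, chosen after their values were seen, are shown because members of this family are known to answer to shared factors: Psmb5, Psme1 and Psme4, higher in MC38, and Psmc4, lower in MC38. Each window runs from 250 bases before to 50 bases after the RefSeq start in GRCm38.p6, in the direction of transcription, at chr14:54617946-54618245 (minus strand), chr14:55578244-55578543 (plus), chr11:30771525-30771824 (plus) and chr7:28050043-28050342 (minus). Capitals mark matches, on either strand, to TGACNNNGC, the core of the antioxidant response element bound by NFE2L1 and its relatives, or to GAAA followed by any 2 bases and a second GAAA, the core of the interferon-stimulated response element.
Psmb5: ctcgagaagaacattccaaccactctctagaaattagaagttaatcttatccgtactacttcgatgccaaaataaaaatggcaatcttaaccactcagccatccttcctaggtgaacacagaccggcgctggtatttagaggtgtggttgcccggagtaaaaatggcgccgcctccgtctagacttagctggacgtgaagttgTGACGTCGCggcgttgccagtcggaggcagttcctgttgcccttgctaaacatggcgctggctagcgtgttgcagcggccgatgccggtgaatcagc
Psme1: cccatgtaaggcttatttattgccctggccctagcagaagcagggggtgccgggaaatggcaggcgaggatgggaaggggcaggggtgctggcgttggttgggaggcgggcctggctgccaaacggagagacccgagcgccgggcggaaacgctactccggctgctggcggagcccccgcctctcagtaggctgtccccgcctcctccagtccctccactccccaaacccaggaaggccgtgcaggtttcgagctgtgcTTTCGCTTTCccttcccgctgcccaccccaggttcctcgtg
Psme4: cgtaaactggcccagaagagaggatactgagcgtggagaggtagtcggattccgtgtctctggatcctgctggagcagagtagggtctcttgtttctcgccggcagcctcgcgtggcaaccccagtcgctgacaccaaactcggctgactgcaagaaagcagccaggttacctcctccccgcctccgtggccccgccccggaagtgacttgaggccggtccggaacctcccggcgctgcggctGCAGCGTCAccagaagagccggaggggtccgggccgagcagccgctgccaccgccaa
Psmc4: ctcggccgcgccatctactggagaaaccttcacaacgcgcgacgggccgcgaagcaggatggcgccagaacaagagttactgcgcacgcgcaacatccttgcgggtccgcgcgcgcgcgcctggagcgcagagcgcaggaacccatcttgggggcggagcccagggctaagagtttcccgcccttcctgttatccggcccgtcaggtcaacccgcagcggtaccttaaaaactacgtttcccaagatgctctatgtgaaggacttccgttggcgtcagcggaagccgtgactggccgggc

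Windows were found for 39 of the 47 genes. The antioxidant-type letters were in 6 of the 39 genes, namely Psmb5, Psmb6, Psmc6, Psmd9, Psmd12 and Psme4, and in 14.3% of their 42 windows, beside 12.4% of the 32851 promoter windows of the table. The interferon-type letters were in 5 of the 39 genes, namely Psmb3, Psmd4, Psmd9, Psme1 and Psmg4, and in 11.9% of the 42 windows, beside 3.44% of all windows. Of these 5, Psme1 alone is on the interferon-inducible list, and Psmb10 and Psme2 had no match. Psmb10 and Psmg1, which differ between the lines as much as the genes shown, held neither motif. Matches to the 2 motifs did not overlap. In Psmb5 and Psme4 the match began 47 and 7 bases before the start, and in Psme1 9 bases after it. The genes with antioxidant-type letters went in different directions between the lines, with Psmb5 at 1.26, Psme4 at 1.62 and Psmb6 at 0.42, but Psmd9 at -0.26, Psmd12 at -0.16 and Psmc6 at -0.14, the last 2 not called. A match describes the letters in the window and no more.

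Genes that work beside the proteasome gave a similar picture. Of 30 listed partners (ubiquitin precursors and activating enzymes, shuttle factors, deubiquitinases, the p97 ATPase and its cofactors, assembly and control factors), 29 were found and tested. The common effect of knockdown was called by edgeR for 0 of the 29, with 3 at an unadjusted p under 0.05, and by DESeq2 and limma for 0, beside the shares of all genes given above for these tests. Over the 29, the median was 0.03 for CT26 and 0.05 for MC38 on the log2 scale. Nfe2l1, the gene of the factor that raises subunit genes, was at 12756 and 13135 fragments in CT26 and 21663 and 21824 in MC38, log2 fold changes of 0.16 and 0.04. Rps27a, a ubiquitin precursor fused to a ribosomal protein and singled out after its values were seen, was furthest from 0 in both lines and in opposite directions, with 2201 and 3308 fragments in CT26 (0.71) and 7105 and 2997 in MC38 (-1.22).

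Between the lines 24 of the 29 partners (82.8%) were called, 11 higher in MC38 and 13 lower, beside the 73.3% called of all genes tested. Under total counts 15 were called higher and 9 lower. On the log2 scale, Pomp, a chaperone of 20S assembly, was at -0.81 in MC38 relative to CT26 and Akirin2, which helps bring proteasomes into the nucleus, at -1.43, whereas Nfe2l1 was at 0.46 and Adrm1, a ubiquitin receptor of the cap, at 0.83. Ufd1, a cofactor of p97 (-1.36), Uba1, the main ubiquitin-activating enzyme (-1.18), and Txnl1 (-1.11) were other partners lower in MC38, and the shuttle factor Ubqln2 (1.45), Nub1 (1.22) and Zfand5 (1.04) were higher.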

How the data were processed

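RNA-seq of the 4 libraries was analysed from 2 tables. The authors deposited estimated counts, scaled between libraries, and FPKM for each gene. Submitters' processing notes name Trimmomatic 0.36, HISAT2, Cufflinks 2.2.1 and Cuffdiff, and GRCm39 as build, but of 18221 genes alone on their locus 99.8% overlapped the gene of that name in GRCm38.p6 and 9.55% in GRCm39, so coordinates are GRCm38. The library kit in the labels is strand-specific, and the counting mode is not given in the sources used here.

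The step between low values gave whole fragments for 96.9% to 97.4% of nonzero counts within 0.05. Intervals (95%, exact conditional binomial) use these fragments and cover counting error only. Fold changes are ratios of TMM-scaled deposited counts with 1 count added. Genes needed a mean of 10 counts in each line. The tests used edgeR 4.0.16 (quasi-likelihood, R 4.3.3) on rounded counts with an adjusted p threshold of 0.05. DESeq2 1.42.0, limma 3.58.1 on log2(FPKM + 0.1 or 1), other scalings, filters and models were alternatives, and the scripts were tested on simulated data. Other steps used Python 3.11.15.

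Named were genes past 1.2-fold in a line with an interval leaving out no difference, the 12 called genes of largest line difference, the catalytic subunits, Psma8, Psme1, Psme2 and Psme2b. Other genes are named to describe their class or were picked after their values were seen. The rule uses names alone, but members and lists were chosen with earlier results of these data known. Promoters are from RefSeq. For Psma8, Psmb1, Psmb2, Psmb7, Psmc3, Psmd3, Psmd7 and Psmg2 there was no promoter entry.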

Additional observations from a re-analysis of the deposited data

Results flagged for a closer look

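For 5 proteasome genes the difference between knockdown and control had opposite directions in the 2 lines, with a counting interval that left out 0 in each line. That is 11.1% of the 45, beside 7.44% of all genes tested and 11.4% of those averaging 500 counts or more. The knockdown effect in MC38 minus that in CT26 was -0.24 on the log2 scale for Psma1, an alpha-ring subunit (95% counting interval -0.35 to -0.13), from 0.13 in CT26 and -0.11 in MC38. It was 0.32 for Psmb2, a beta-ring subunit (0.21 to 0.44), 0.40 for Psmc5, an ATPase of the cap (0.31 to 0.48), 0.39 for Psme3, the nuclear activator (0.33 to 0.45), and 0.34 for Psmg3, an assembly chaperone (0.13 to 0.55). In the last 4 the value was below 0 in CT26 and above it in MC38. With 1 library per line and virus the difference was not tested, and spread between cultures cannot be told apart from it.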

How the results depend on the processing

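The alternatives were other scalings, added counts, filters, the deposited FPKM, other tests and, chosen after seeing the data, only genes with a locus of their own. No call for a member turned to a call in the other direction, but between the lines total counts turned Psma5, Psmc5, Psmd5 and Psmd10, below 0 and not called, to 0.25, 0.21, 0.27 and 0.25, with edgeR adjusted p of 0.0341, 0.0481, 0.0116 and 0.036. Members at least 1.2-fold higher in CT26 numbered 1 with total counts, with FPKM (pseudocount 0.1 or 1) and with own loci, in place of 2. Without a filter they numbered 3 of 46, as Psma8 with its 1 fragment was added. Members lower in CT26 numbered 1 with FPKM and 0 with own loci, in place of 3, and in MC38 0 with own loci, in place of 2. Between the lines, total counts moved the members' median to 0.25. They called 24 higher and 7 lower, in place of 14 and 18, beside 49.1% and 25.4% of all genes. Without a filter 9 of 46 were called higher and 19 lower, beside 5982 and 5366 of 23428 genes. Total counts moved the median of all genes by 0.31 in this comparison, but by -0.02 in CT26 and in MC38. The cause of the other shifts was not tested. The common effect of knockdown was called for 0 members under each alternative, beside 0% to 2.8% of all genes. Members at an unadjusted p under 0.05 numbered 0 to 4. The share of all genes at that p was 4.17% with DESeq2 and 9.7% and 9.08% with limma (pseudocount 0.1 and 1). No library could be left out, since each group holds 1, and the labels number no replicates. The fits pair the libraries by line and virus, and without that block 0 members were called for knockdown, as were 0 of all genes (13 at an unadjusted p under 0.05), and 13 higher and 17 lower between the lines, beside 34.3% and 34.3% of all genes. Depth limits Psma8, Psmb11 and, in CT26, Psmg1 and Psmb10.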
